A study of Mus musculus with 2 samples.

Results

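Glutathione and thioredoxin systems are the main thiol-based means by which a cell removes peroxides and returns oxidised proteins to their reduced form. Glutathione S-transferases couple glutathione to reactive compounds, glutathione peroxidases and peroxiredoxins reduce peroxides, and glutaredoxin and thioredoxin reduce disulfides on other proteins. In T cells these systems are known for buffering the oxidants made during activation and growth. Transcripts of 10 such enzymes were followed here in sorted CD4+ CD25+ cells of mouse lymph node and spleen: the transferases Gsta4, Gsto1 and Gstp1, the peroxidases Gpx1 and Gpx4, the glutaredoxin Glrx, the thioredoxin Txn1 and the peroxiredoxins Prdx1, Prdx2 and Prdx6. The rows were found by gene symbol, and all 10 were present among 31056 features. The set was chosen by name with earlier results of these libraries known, in which Gsta4 and Gpr83 led an unnamed cluster. Every level below is therefore a description without a test.

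The animals were healthy Mycfl/fl Foxp3Cre/WT female mice, a genotype shared by every cell of both tissues. Foxp3, the lineage factor of regulatory T (Treg) cells, drives the Cre and is X-linked, so Treg cells that use either allele exist side by side in 1 animal. YFP+ and YFP- cells were sorted together into 1 library for the lymph node and 1 library for the spleen. The sources used here give neither a cell's YFP status, the ratio of the 2 kinds nor the number of animals, so no cell was called Myc-deficient. Unique molecular identifiers (UMIs) count distinct captured transcripts. They totalled 13324306 over 5079 barcodes in the lymph node and 16868549 over 6840 barcodes in the spleen. Filters on gene number and mitochondrial UMIs left 4820 lymph node and 6543 spleen cells, with medians of 2031 and 1935 UMIs. The libraries share 53 barcode sequences, 45 of them among kept cells in both. All 4 CD4 T cell markers (Cd3e, Cd3d, Cd3g, Cd4) were detected, at a summed 3157 CPM in the lymph node and 3196 CPM in the spleen. The 6 Treg markers summed to 1238 and 1290 CPM.

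Levels are in CPM, the UMIs of a gene summed over a group of cells and scaled to a group total of 1000000 UMIs. Each level has an exact Poisson 95% interval and each ratio an exact conditional 95% interval. These cover counting error only, since 1 library per tissue allows no estimate of the spread between animals and no test. A ratio was called past the fold where it was over 1.5 in either direction, among genes with a mean of at least 20 CPM, which all 10 enzymes passed. A summed level cannot tell more expressing cells from more transcripts per cell. The 6 gates were read from raw UMIs, at 1 UMI or more, of Foxp3, ICRE, Klrg1, Gpr83, Il2ra and Ly6c1. Foxp3 and Il2ra (CD25) mark Treg cells, Klrg1 marks differentiated effector Treg cells, Gpr83 is a receptor enriched in Treg cells, and Ly6c1 encodes a surface antigen of resting T cells. ICRE is a feature added to the gene table and is not described in the labels. A cell with 0 UMIs of a gate gene is not shown to lack it, because these transcripts were sparsely captured.

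The 10 genes lie on 7 chromosomes of GRCm38, and only Gsta4 with Gpx1, Gsto1 with Gstp1, and Txn1 with Prdx1 share a chromosome. Gsta4 lies at chr9:78182774-78209349 on the plus strand, Gsto1 at chr19:47854970-47864790 on the plus strand and Glrx at chr13:75839868-75850154 on the plus strand. Prdx1 lies at chr4:116685544-116700822, Prdx2 at chr8:84969587-84974834, Gpx1 at chr9:108338903-108340343 and Gpx4 at chr10:80047166-80056439, all on the plus strand. Gstp1 (chr19:4035407-4037985), Txn1 (chr4:57943373-57956411) and Prdx6 (chr1:161240112-161251219) lie on the minus strand. All 10 are protein-coding, and a 3′ kit counts mostly reads from the last exon and the 3′ end. Gsto1 overlaps Cfap43, and Prdx2 overlaps Rnaseh2a and Junb, each on the opposite strand. Without a stated strand setting for the counting, reads in those overlaps cannot be assigned with certainty. Promoters of 8 of the 10 genes were matched in the RefSeq table for GRCm38.p6, which holds 250 bases before to 50 bases after each start. Those of Gsta4 and Prdx6 were not matched. The core of the antioxidant response element (TGACNNNGC, both strands), the motif through which Nrf2 is known to act on many redox genes, was found in 1 of the 8 genes, Prdx1, beginning 133 bases before its start. Of all 32851 promoters of that length, 12.4% hold it. The Myc E-box CACGTG, searched because Myc is floxed in these animals, was in 0 of the 8 genes, against 7.15% of all promoters. The 8 genes have 12 promoters, so the counts for the enzymes are per gene and the shares of all are per promoter. The promoter of Prdx1 is shown for this motif, and those of Glrx and Gsto1 because both enzymes were past the fold with Gpr83 in both libraries. Capitals mark the core in Prdx1, which reads TGACNNNGC on the opposite strand. The windows are chr4:116685349-116685648, chr13:75839635-75839934 and chr19:47854723-47855022, all on the plus strand.
Prdx1: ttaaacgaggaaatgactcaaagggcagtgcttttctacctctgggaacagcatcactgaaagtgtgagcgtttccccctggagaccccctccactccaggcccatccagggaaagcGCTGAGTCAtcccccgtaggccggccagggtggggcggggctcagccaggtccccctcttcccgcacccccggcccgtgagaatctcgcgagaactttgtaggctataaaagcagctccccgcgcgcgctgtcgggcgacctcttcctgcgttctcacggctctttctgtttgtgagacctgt
Glrx: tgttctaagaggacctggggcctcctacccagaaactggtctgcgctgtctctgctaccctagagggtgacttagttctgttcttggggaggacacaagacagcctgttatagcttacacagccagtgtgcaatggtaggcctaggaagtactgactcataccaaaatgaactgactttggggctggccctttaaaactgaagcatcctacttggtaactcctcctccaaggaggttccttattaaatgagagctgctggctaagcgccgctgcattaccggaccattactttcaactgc
Gsto1: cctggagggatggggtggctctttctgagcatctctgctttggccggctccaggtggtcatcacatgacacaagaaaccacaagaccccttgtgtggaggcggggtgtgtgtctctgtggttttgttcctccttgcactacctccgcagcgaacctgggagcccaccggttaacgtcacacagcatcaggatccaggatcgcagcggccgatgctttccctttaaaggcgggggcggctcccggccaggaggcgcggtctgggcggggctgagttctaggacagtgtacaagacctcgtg
The match is a description of letters in these windows, and factor binding was not measured.

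The redox transcripts differed little between the tissues. None of the 10 was past the fold in lymph node over spleen, where 1.58% of 5048 genes were. Gsta4, the transferase known for clearing the lipid peroxidation product 4-hydroxynonenal, came closest at 38.9 CPM (interval 35.6 to 42.5) in the lymph node and 58.2 CPM (54.6 to 61.9) in the spleen. That is 1.49-fold lower in the lymph node (1.34 to 1.67), just inside the threshold. Gsto1, an omega-class transferase that also reduces dehydroascorbate, had 50.1 CPM in the lymph node and 63.4 CPM in the spleen, a log2 ratio of -0.34. Glrx, which removes glutathione from proteins, had the opposite tilt, at 109 CPM (103 to 114) in the lymph node and 81.8 CPM (77.5 to 86.3) in the spleen. Its ratio was 1.33 (1.23 to 1.43). The pi-class transferase Gstp1 was also higher in the lymph node, at 203 CPM and 167 CPM in the spleen.

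The remaining 6 enzymes stood within 0.25 of 0 on the log2 scale. Gpx1, the cytosolic peroxidase for soluble peroxides, had 174 CPM in the lymph node and 196 CPM in the spleen. Gpx4, which reduces lipid hydroperoxides in membranes and so guards against ferroptosis, had 470 CPM in the lymph node and 434 CPM in the spleen. Txn1, the cytosolic thioredoxin, was the only gene whose ratio interval held 1, at 291 CPM in the lymph node and 280 CPM in the spleen. Among the peroxiredoxins, Prdx1 had 451 CPM in the lymph node and 489 CPM in the spleen. Prdx2, a typical 2-Cys enzyme like Prdx1, had 200.5 and 189 CPM in the same order, and Prdx6, the 1-Cys enzyme that uses glutathione, had 167 and 197 CPM. The median log2 ratio of the 10 was -0.03, and that of all genes was -0.02. Haemoglobin and Alas2 transcripts summed to 327 CPM in the lymph node and 0.961 CPM in the spleen, and 53 lymph node barcodes held 3 or more haemoglobin UMIs. Prdx2, which is abundant in red cells, stood at 298 CPM (252 to 350) in those barcodes. They were deep, at a median of 6072 UMIs. Txn1 at 704 CPM, Prdx1 at 835 CPM and Glrx at 167 CPM were also above their lymph node levels there. Gsta4 at 7.95 CPM and Gpx4 at 340 CPM were below theirs. The log2 tissue ratio of Prdx2 was 0.08 with these barcodes and 0.06 without them.

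**Figure D1:**
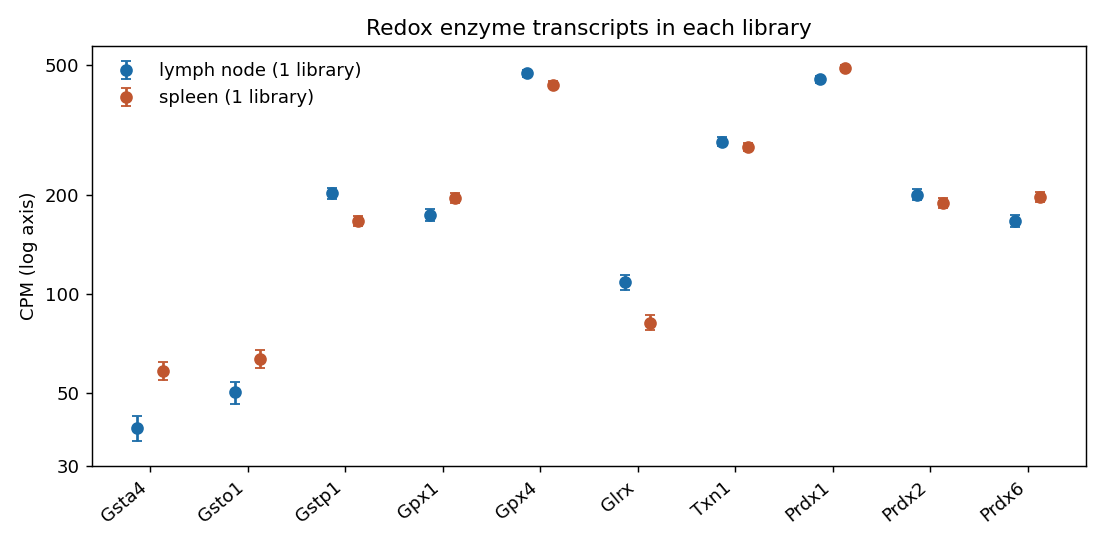
CPM (log axis) of the 10 enzymes in the lymph node library and the spleen library, 1 library each, with bars for the exact Poisson 95% interval. Gsta4 sits at 38.9 CPM in the lymph node and 58.2 CPM in the spleen, and no gene is past 1.5-fold.

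Depth per cell moved with several of these genes and is given before the gates, because gate-positive cells can be deeper. Cells of each library were set in 4 groups by their UMIs, from the shallowest to the deepest. Glrx had 34.6, 43.7, 87.5 and 159 CPM across these groups in the lymph node and 41.4, 33.8, 57.6 and 121 CPM in the spleen. Txn1 was level over the 3 shallower groups and high in the deepest, at 196, 199, 213 and 382 CPM in the lymph node and 221, 219, 210 and 352 CPM in the spleen. Prdx1 had the same form, with 364 to 389 CPM in the 3 shallower lymph node groups and 528 CPM in the deepest. Gsta4 ran the other way, at 62.3, 62.8, 37.5 and 25.8 CPM in the lymph node and 75.4, 72.6, 55.3 and 50.1 CPM in the spleen. Gpx4 fell likewise, with 585 CPM in the shallowest and 389 CPM in the deepest lymph node group, and Gstp1 kept within 198 to 214 CPM there. For this reason each gate value below is followed, where it matters, by a log2 ratio in which second-named cells were weighted so that their depth matched that of the gate-positive cells.

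**Figure D2:**
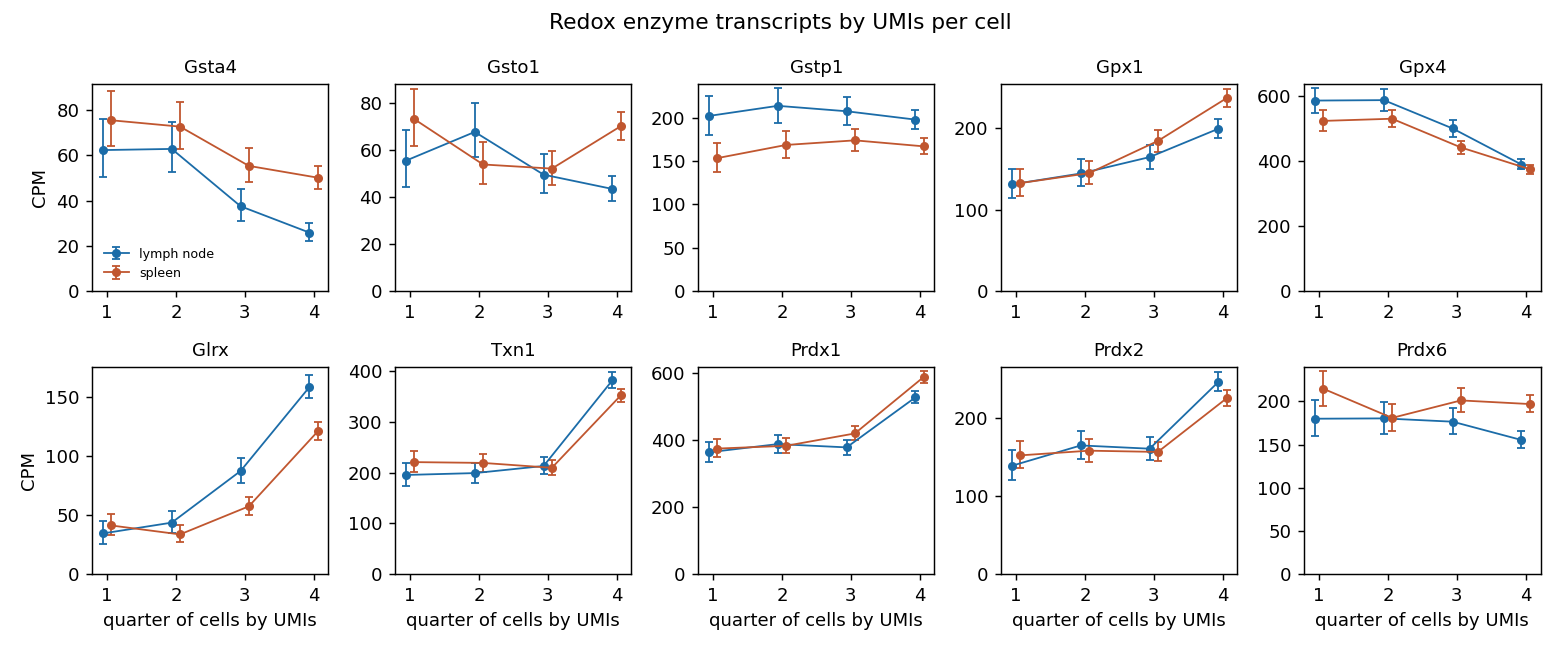
CPM of each enzyme in 4 groups of cells ordered by UMIs per cell (1 shallowest, 4 deepest), lymph node and spleen, with exact Poisson 95% intervals. Glrx, Txn1 and Prdx1 are highest in the deepest group of both libraries, while Gsta4 and Gpx4 are lowest there.

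Gpr83-positive cells held more of both Gsta4 and Gsto1 and less Glrx, in both libraries. This gate comprised 762 lymph node and 1184 spleen cells. Depth was nearly even in it, with medians of 2024 UMIs in positive cells and 2033 in cells with 0 UMIs in the lymph node, and 2085 and 1906 in the spleen. Since Gpr83 and Gsta4 had led a cluster together, this pairing was known and is not independent evidence.

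In the lymph node Gsta4 had 67.2 CPM (56.6 to 79.2) in Gpr83-positive cells and 33.5 CPM (30.1 to 37.1) in Gpr83-0 cells, a ratio of 2.01 (1.64 to 2.44). Spleen levels were 88.5 CPM (78.5 to 99.5) and 51.1 CPM (47.3 to 55.0) in the same order, a ratio of 1.73 (1.503 to 1.995). Gsto1 had 73.8 CPM in positive and 45.5 CPM in Gpr83-0 cells of the lymph node, and 94.5 and 56.1 CPM in the spleen. The 2 transferases were thus higher by similar ratios, 1.62 (1.35 to 1.94) and 1.68 (1.47 to 1.93) for Gsto1. Glrx was 2.02-fold lower (1.68 to 2.44) in positive cells of the lymph node, at 58.7 CPM against 118 CPM. It was 2.03-fold lower (1.70 to 2.44) in the spleen, at 44.6 CPM against 90.5 CPM. Weighting for depth gave log2 ratios of 1.05 and 0.84 for Gsta4, 0.70 and 0.73 for Gsto1, and -1.05 and -1.14 for Glrx, lymph node before spleen. With cells thinned to 1200 UMIs Glrx in the spleen was 1.46-fold lower, below the fold.

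These 3 of 10 genes were past the fold in the lymph node, where 2.01% of all genes were, and the same 3 in the spleen, where 2.03% of all genes were. The gate was part of the choice of genes, so nothing is read from that excess. Across the 10, median log2 ratios were -0.09 and -0.12, against -0.01 and -0.03 for all genes. The other 7 stayed between log2 ratios of -0.42 and 0.08. Gpx1 marked the low end in the spleen, at 154 CPM in Gpr83-positive and 206 CPM in Gpr83-0 cells. Prdx1 was 1.11-fold lower (1.03 to 1.19) in positive cells of the lymph node and 1.25-fold lower (1.17 to 1.32) in those of the spleen. Effector Treg markers (Klrg1, S100a4, Gzmb, Icos, Itgb1) summed to 215 CPM in Gpr83-positive and 574 CPM in Gpr83-0 cells of the lymph node, and to 270 and 669 CPM in the spleen. B cell markers stood at 92.3 and 171 CPM in the lymph node and 71.4 and 124 CPM in the spleen. Their part in the result was not tested.

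Both transferases were higher in cells with more Gpr83 UMIs, though not at each step. Cells were thinned to 1200 UMIs each for this, and grouped at 0, 1, 2 and 3 or more Gpr83 UMIs. Gsta4 in the spleen had 56.7, 64.3, 100.4 and 175 CPM across these groups, the last resting on 33 UMIs in 157 cells (interval 121 to 246). In the lymph node it had 40.8, 83.0, 65.5 and 102 CPM, and the intervals of the 3 positive groups overlap. Gsto1 had 45.6, 91.4, 132 and 117 CPM in the spleen and 49.97, 61.4, 107 and 111 CPM in the lymph node. Glrx fell to 20.8 and 26.6 CPM at 2 and at 3 or more UMIs in the spleen, against 58.9 CPM at 0. Over all Gpr83-positive spleen cells, those with 1 UMI included, it was at 40.3 CPM. In the lymph node it had 84.3, 44.8, 47.7 and 37.1 CPM.

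**Figure D3:**
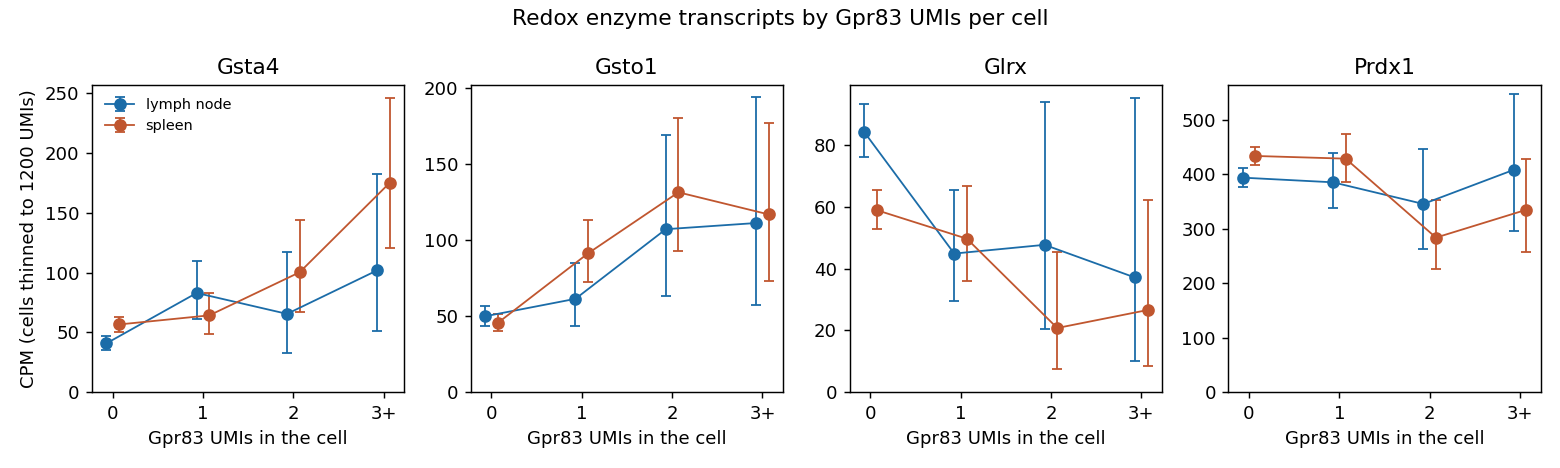
CPM of Gsta4, Gsto1, Glrx and Prdx1 by the number of Gpr83 UMIs in the cell (0, 1, 2, 3 or more), in cells thinned to 1200 UMIs, with exact Poisson 95% intervals. Gsta4 in the spleen runs from 56.7 CPM at 0 UMIs to 175 CPM at 3 or more, and the lymph node groups with any Gpr83 UMI overlap.

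Cells with a Gsta4 UMI also held more Gsto1. Both genes were chosen with earlier results of these libraries known, so this pairing is not independent evidence. The values are summed levels, and cells holding both were not counted. Lymph node cells with a Gsta4 UMI (364 cells) held 124 CPM of Gsto1, against 43.3 CPM in the 4456 cells without. The spleen gave 138 CPM in 597 such cells and 54.6 CPM in 5946 cells without, a ratio of 2.52 (2.17 to 2.91). The log2 ratios were 1.52 and 1.33, and 1.60 and 1.27 when weighted for depth. Read the other way, Gsta4 was at 84.0 CPM in Gsto1-positive and 30.9 CPM in Gsto1-0 lymph node cells. It was at 94.4 CPM in Gsto1-positive and 50.1 CPM in Gsto1-0 spleen cells. Klrg1 was lower among Gsta4-positive cells of the spleen, at 11.3 CPM (from 20 UMIs) against 33.9 CPM in cells without Gsta4. The lymph node gap was smaller, at 28.2 against 43.2 CPM, a ratio of 0.65 (0.44 to 0.94). Ly6c1 was at 63.4 CPM in Gsta4-positive spleen cells, against 152 CPM in those without, and at 85.6 and 130 CPM in the lymph node.

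Klrg1-positive cells showed the reverse profile, with much Glrx, more Prdx1, Txn1 and Gpx1, and little Gsta4. There were 223 such cells in the lymph node and 229 in the spleen. They were deeper, at medians of 3209 UMIs against 1991 in Klrg1-0 cells of the lymph node and 3384 against 1907 in the spleen. Glrx had 396 CPM (356 to 439) in positive and 87.2 CPM (82.1 to 92.7) in Klrg1-0 lymph node cells, a ratio of 4.54 (4.02 to 5.12). The spleen had 356 CPM (320 to 394) and 63.9 CPM (60.0 to 68.0), a ratio of 5.57 (4.92 to 6.28). Weighting for depth left log2 ratios of 1.76 and 1.83, from 2.18 and 2.48 unweighted.

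Prdx1, which reduces hydrogen peroxide with electrons from thioredoxin, had 707 CPM in positive and 432 CPM in Klrg1-0 lymph node cells. In the spleen it had 1030 CPM (968 to 1094) and 453 CPM (443 to 464), a ratio of 2.27 (2.13 to 2.42). Its weighted log2 ratios were 0.48 and 0.78, from 0.71 and 1.18 unweighted. Txn1 was 1.52-fold higher (1.36 to 1.69) in positive cells of the lymph node and 1.804-fold higher (1.64 to 1.98) in those of the spleen, and its weighted log2 ratios were 0.17 and 0.34. Gpx1 was past the fold in the spleen, at 293 CPM in positive and 190 CPM in Klrg1-0 cells. Its log2 ratio was 0.63 there and 0.41 in the lymph node, or 0.33 and 0.22 when weighted. Prdx2 stood at 253 CPM in positive and 197 CPM in Klrg1-0 cells of the lymph node, and at 264 and 184 CPM in the spleen.

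Gsta4 was scarce in Klrg1-positive cells. It had 14.4 CPM (7.66 to 24.6, from 13 UMIs) there and 40.7 CPM (37.2 to 44.5) in Klrg1-0 cells of the lymph node, a 2.83-fold lower level (1.64 to 5.36). In the spleen it had 7.84 CPM (3.38 to 15.4, from 8 UMIs) and 61.5 CPM (57.6 to 65.5), 7.84-fold lower (3.96 to 18.2). Weighted log2 ratios were -1.10 and -2.83. Gsto1 was 1.60-fold lower (1.11 to 2.41) in positive cells of the lymph node, at 32.1 CPM against 51.4 CPM. In the spleen the interval of its ratio held 1, at 68.6 CPM in positive and 63.1 CPM in Klrg1-0 cells. Prdx6 and Gpx4 had intervals that held 1 in the lymph node, at 145 against 169 CPM and 502 against 468 CPM.

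In the lymph node 5 of the 10 were past the fold, where 17.3% of all genes were, and in the spleen 5, where 25.1% of all genes were. Glrx, Prdx1, Txn1 and Gsta4 were past it in both. Weighting for depth left 2 of the 10 in the lymph node, with 16.5% of all genes past the fold, and 3 in the spleen, with 21.3% of all genes. Without the 6% of barcodes with the most UMIs Txn1 was below the fold in both libraries, at 1.404-fold and 1.34-fold higher. The median log2 ratio of the 10 was 0.26 and 0.49, against 0.11 and 0.14 for all genes. Cycling markers summed to 721 CPM in positive and 257 CPM in Klrg1-0 lymph node cells, and to 1191 and 182 CPM in the spleen. Their part was not tested. Myeloid markers stood at 209 and 149 CPM in the lymph node and 241 and 185 CPM in the spleen, with S100a8 and S100a9 at 0 UMIs in every group. In Klrg1-positive lymph node cells that sum came from 1 of the 6 genes, with Lyz2, Csf1r and Cd14 also at 0. In Klrg1-positive spleen cells it came from 2 of the 6. Gstp3, another pi-class transferase, had 182 CPM in positive and 106 CPM in Klrg1-0 spleen cells, while Gstp1 had 226 and 163 CPM.

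Foxp3-positive cells shared the high Glrx. The gate held 1007 lymph node and 1239 spleen cells, with medians of 2849 and 2940 UMIs against 1846 and 1793 in Foxp3-0 cells. Glrx had 186 CPM (172 to 201) in positive and 79.3 CPM (73.7 to 85.2) in Foxp3-0 lymph node cells, a ratio of 2.35 (2.11 to 2.61). The spleen values were 149 CPM (138 to 160) and 56.7 CPM (52.5 to 61.1), a ratio of 2.62 (2.35 to 2.92). Weighted log2 ratios were 0.87 and 0.90, from 1.23 and 1.39. It was the 1 enzyme of 10 past the fold in each library, where 3.22% of all genes in the lymph node and 4.78% in the spleen were.

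The other enzymes differed by less. Txn1 had 339 CPM in positive and 273 CPM in Foxp3-0 cells of the lymph node, and 350 and 254 CPM in the spleen. Prdx1 had 500.3 and 433 CPM in the lymph node and 603 and 446 CPM in the spleen. Those gaps nearly closed with weighting, to log2 ratios of 0.02 and 0.12 for Txn1 and 0.05 and 0.13 for Prdx1. Gsta4 was 1.35-fold lower (1.09 to 1.69) in Foxp3-positive cells of the lymph node and 1.295-fold lower (1.11 to 1.51) in those of the spleen, at weighted log2 ratios of -0.06 and -0.17. Gsto1 intervals held 1 in both libraries. The median log2 ratio of the 10 was 0.14 and 0.24, against -0.01 and -0.01 for all genes. Cycling markers summed to 452 CPM in Foxp3-positive and 228 CPM in Foxp3-0 cells of the lymph node, and to 517 and 142 CPM in the spleen. Effector Treg markers stood at 850.4 and 389 CPM in the lymph node and 1062 and 417 CPM in the spleen, and their part was not tested.

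ICRE-positive cells had the Gpr83-like profile, with more Gsta4 and less Glrx. There were 379 in the lymph node and 549 in the spleen, and they were shallower, at medians of 1620 against 2104 UMIs in ICRE-0 cells of the lymph node and 1663 against 1990 in the spleen. Gsta4 had 78.1 CPM (59.2 to 101) in positive and 36.6 CPM (33.3 to 40.1) in ICRE-0 lymph node cells, and 87.8 CPM (71.1 to 107) and 56.1 CPM (52.4 to 59.9) in the spleen. The ratios were 2.14 (1.59 to 2.82) and 1.57 (1.25 to 1.93), and the weighted log2 ratios 0.77 and 0.53, so the spleen value falls below the fold once depth is weighted. Gsto1 was 2.12-fold higher (1.64 to 2.71) in the lymph node, at 100.1 CPM in positive and 47.1 CPM in ICRE-0 cells. In the spleen its ratio of 1.21 had an interval that held 1 (0.959 to 1.52).

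Glrx was very low in ICRE-positive cells. It had 26.0 CPM (15.7 to 40.7, from 19 UMIs) there and 114 CPM (108 to 120) in ICRE-0 cells of the lymph node, 4.36-fold lower (2.78 to 7.26). In the spleen it had 35.7 CPM (25.4 to 48.8, from 39 UMIs) and 85.0 CPM (80.5 to 89.7), 2.38-fold lower (1.73 to 3.37). Weighting for depth gave log2 ratios of -1.57 and -0.84, from -2.12 and -1.25 unweighted. Gpx4 was modestly higher, at 606 CPM in positive and 462 CPM in ICRE-0 lymph node cells and 496 and 430 CPM in the spleen. Its log2 ratios of 0.39 and 0.20 became 0.23 and 0.09 with weighting. Past the fold were 3 of 10 enzymes in the lymph node, where 13.8% of all genes were, and 2 in the spleen, where 7.55% of all genes were. The median log2 ratio of the 10 was -0.15 and -0.09, against 0.10 and 0.10 for all genes. Foxp3 itself stood at 42.5 CPM in ICRE-positive and 114 CPM in ICRE-0 cells of the lymph node, and Gpr83 at 241 and 79.6 CPM. Markers of resting T cells (all 7 detected) summed to 3614 and 1854 CPM in the lymph node and 3302 and 2081 CPM in the spleen. Effector Treg markers stood at 145 CPM in ICRE-positive and 538 CPM in ICRE-0 cells of the lymph node, and at 253 and 617 CPM in the spleen. Cycling markers stood at 75.4 and 302 CPM in the lymph node and 134 and 252 CPM in the spleen. The part of these lists was not tested.

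A last contrast set ICRE-positive cells with 0 Foxp3 UMIs against Foxp3-positive cells with 0 ICRE UMIs, and Glrx again differed most. The sides held 354 and 982 cells in the lymph node and 505 and 1195 in the spleen, at medians of 1606 and 2860 UMIs and of 1635 and 2941 UMIs. Glrx had 27.8 CPM (16.5 to 44.0) in the ICRE group and 190 CPM (176 to 205) in the Foxp3 group of the lymph node, 6.83-fold lower (4.29 to 11.6). The spleen values were 32.9 CPM (22.4 to 46.7) and 152 CPM (141 to 164), 4.61-fold lower (3.22 to 6.84). Weighting the Foxp3 group to the shallower cells left log2 ratios of -1.89 in the lymph node and -1.89 in the spleen, from -2.77 and -2.21.

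Gsta4 was 2.71-fold higher (1.92 to 3.79) in the ICRE group of the lymph node, at 83.5 CPM against 30.8 CPM in the Foxp3 group. It was 1.97-fold higher (1.52 to 2.54) in the spleen, at 94.5 CPM against 48.0 CPM. Weighted log2 ratios were 0.61 and 0.83. Gsto1 was 2.23-fold higher (1.65 to 2.97) in the ICRE group of the lymph node, at 104 CPM and 46.6 CPM in the Foxp3 group. The spleen had 73.3 and 65.7 CPM, with an interval of the ratio that held 1. Txn1 was 1.57-fold lower (1.32 to 1.88) in the ICRE group of the lymph node and 1.60-fold lower (1.38 to 1.86) in that of the spleen, with weighted log2 ratios of -0.28 and -0.21. Prdx1 was lower, at 368 CPM in the ICRE and 505 CPM in the Foxp3 group of the lymph node and 374 and 600 CPM in the spleen. Its spleen log2 ratio of -0.68 became -0.399 with weighting and -0.38 with thinning, both below the fold. Gpx1 had 142 and 185 CPM in the lymph node and 131 and 227 CPM in the spleen. Its spleen log2 ratio of -0.799 became -0.404 with weighting, below the fold, and -0.92 with thinning. Neither gene was past the fold in the lymph node.

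Of the 10 enzymes 4 were past the fold in the lymph node, where 21.1% of all genes were, and 5 in the spleen, where 19.4% of all genes were. Glrx, Gsta4 and Txn1 were past it in both libraries. Weighting left 3 of 10 in the lymph node, with 18.8% of all genes past the fold, and 2 of 10 in the spleen, with 13.5% of all genes. Txn1 was no longer past the fold in either library after weighting, and it was 1.12-fold and 1.098-fold lower without the 6% of barcodes with the most UMIs. In the spleen Prdx1 and Gpx1 were also no longer past the fold after weighting. Across the 10, median log2 ratios were -0.29 and -0.31, against 0.11 and 0.11 for all genes. The groups also differed in composition: resting T cell markers summed to 3660 CPM in the ICRE and 1360 CPM in the Foxp3 group of the lymph node, and effector Treg markers to 119 and 862 CPM. The spleen had 3410 and 1572 CPM for the resting and 184 and 1075 CPM for the effector list. The part of composition in these ratios was not tested.

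The contrast was then taken within Gpr83 strata, where the ICRE group was again shallower. Its medians were 1658 and 1710 UMIs in Gpr83-positive cells, against 3126 and 3275 in the Foxp3 group, and 1588 and 1624 against 2771 and 2879 in Gpr83-0 cells, lymph node before spleen. Among Gpr83-positive cells Glrx stood at 31.5 CPM (from 5 UMIs in 84 cells) in the ICRE group and 83.3 CPM in the Foxp3 group of the lymph node, 2.65-fold lower (1.07 to 8.49). The spleen gave 39.1 and 71.8 CPM, with an interval of the ratio that held 1. Among Gpr83-0 cells the gap was wider, at 26.7 and 214 CPM in the lymph node and 30.6 and 172 CPM in the spleen, 8.05-fold lower (4.67 to 15.2) and 5.62-fold lower (3.64 to 9.15). Weighted for depth, the log2 ratios of Glrx were -2.08 and -2.08 in Gpr83-0 cells. In Gpr83-positive cells they were 0.0036 and -0.73, so the lymph node difference in that stratum was not kept. Gsta4 kept its direction in each stratum, with log2 ratios of 1.497 and 0.65 in Gpr83-positive and 1.36 and 1.06 in Gpr83-0 cells, lymph node before spleen. Its interval in Gpr83-positive spleen cells held 1 (ratio 0.9904 to 2.43). Weighted values were 1.198 and 1.75 in Gpr83-positive and 0.399 and 0.71 in Gpr83-0 cells. In Gpr83-0 lymph node cells Gsta4 was thus 1.32-fold higher after weighting, below the fold. No interval was computed for the weighted values. The difference between strata was not tested.

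**Figure D4:**
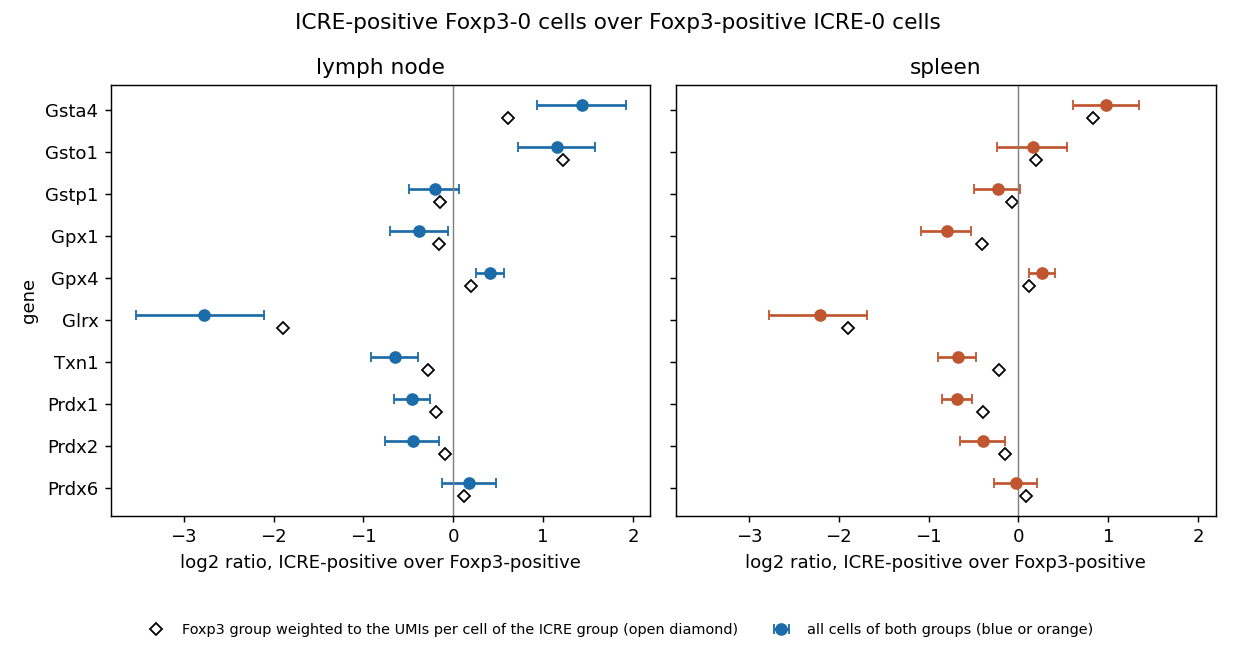
log2 ratio of CPM, ICRE-positive Foxp3-0 cells over Foxp3-positive ICRE-0 cells, in lymph node and spleen. Filled points carry exact conditional 95% intervals, and open diamonds weight the Foxp3 group to the depth of ICRE cells; Glrx lies at -2.77 and -2.21 and its diamonds at -1.89, while most other diamonds lie nearer 0 than their points.

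Cells with and without Il2ra UMIs differed by less than the fold in each of these enzymes. Of 10, 0 were past the fold in the lymph node, where 0.953% of all genes were, and 0 in the spleen, where 0.773% of all genes were. The gate held 1240 and 2009 cells. Glrx in the spleen came closest, at 97.6 CPM in Il2ra-positive and 73.2 CPM in Il2ra-0 cells, a ratio of 1.33 (1.20 to 1.49) whose weighted log2 value was 0.16. In the lymph node Glrx had 112 and 107 CPM. Gsta4 intervals held 1 in both libraries, at 36.6 against 39.9 CPM and 61.4 against 56.4 CPM.

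Ly6c1-positive cells, 923 in the lymph node and 1373 in the spleen, had less Glrx. It stood at 59.0 CPM in positive and 119 CPM in Ly6c1-0 lymph node cells, 2.02-fold lower (1.69 to 2.43), and at 51.9 and 89.3 CPM in the spleen, 1.72-fold lower (1.47 to 2.03). Weighting gave log2 ratios of -0.86 and -0.67. Gsta4 differed in the spleen, at 29.1 CPM (23.6 to 35.5) in positive and 65.5 CPM (61.2 to 70.0) in Ly6c1-0 cells, 2.25-fold lower (1.82 to 2.81). In the lymph node its interval held 1, at 33.2 and 40.1 CPM. Whether the tissues differ in this was not tested. With 0, 1, 2 and 3 or more Ly6c1 UMIs, thinned spleen cells had 71.2, 39.0, 21.8 and 14.3 CPM of Gsta4, the last from 4 UMIs. Glrx ran 62.2, 37.9, 21.8 and 17.9 CPM in the spleen and 86.3, 48.9, 39.5 and 28.0 CPM in the lymph node. Past the fold were 1 of 10 in the lymph node, where 3.65% of all genes were, and 2 in the spleen, where 3.95% of all genes were. The median log2 ratio of the 10 was -0.16 and -0.15, against -0.05 and -0.08 for all genes. Effector Treg markers summed to 257 CPM in Ly6c1-positive and 571 CPM in Ly6c1-0 cells of the lymph node, and to 286 and 670.2 CPM in the spleen, and their part was not tested.

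**Figure D5:**
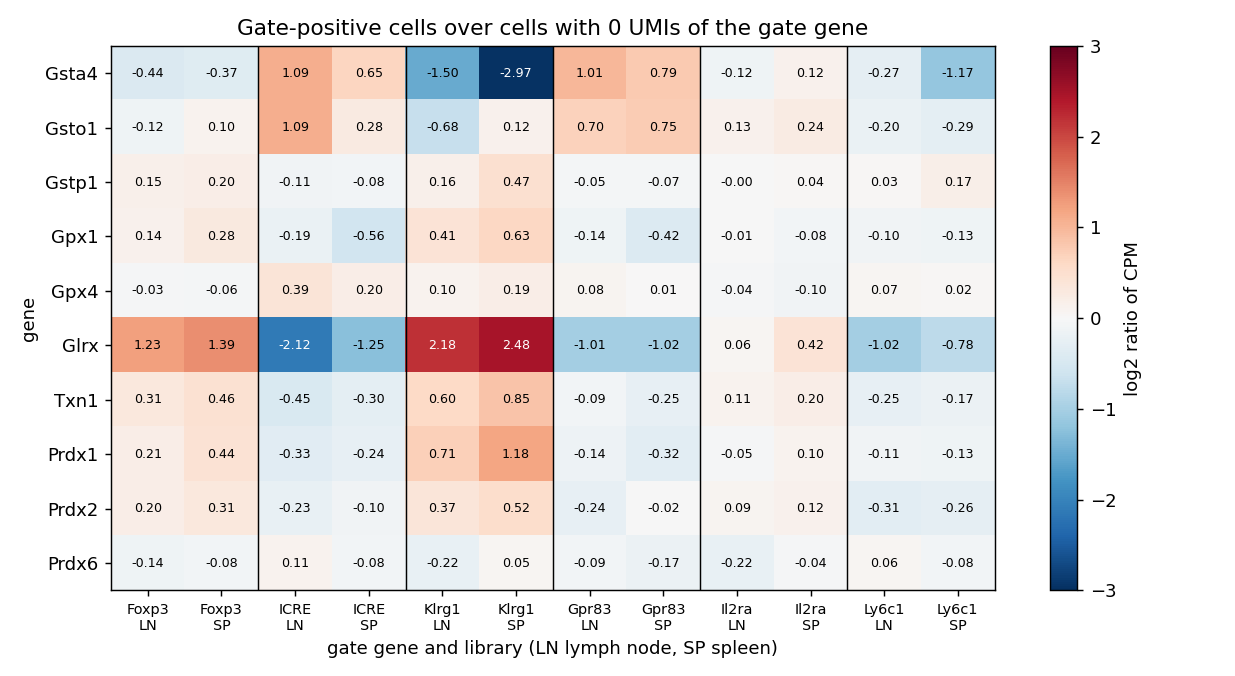
log2 ratio of CPM, gate-positive cells over cells with 0 UMIs of the gate gene, for the 10 enzymes, 6 gates and 2 libraries (red higher and blue lower in positive cells). Glrx runs from -2.12 with ICRE to 2.48 with Klrg1, Gsta4 from -2.97 with Klrg1 to 1.09 with ICRE, and the Il2ra columns stay within 0.42 of 0.

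Set in order over the gate-positive groups, Glrx ran from Klrg1 through Foxp3 and Il2ra to Ly6c1, Gpr83 and ICRE in both libraries. Its neighbours Ly6c1 and Gpr83 overlapped in their intervals in both, and Gpr83 and ICRE overlapped in the spleen. Prdx1, Txn1, Gpx1, Gstp1 and Prdx2 also had Klrg1 and then Foxp3 at the top of that order in both libraries. The Klrg1 and Foxp3 intervals overlapped for Gpx1 and Gstp1 in the lymph node and for Prdx2 in both libraries. Gsta4 had ICRE and Gpr83 at the top, with overlapping intervals, and Klrg1 at the bottom. Gates share cells, so these groups are not independent. The levels in this order are not weighted for depth, and Glrx was highest in the deepest cells. Median UMIs fell from 3209 in Klrg1-positive through 2849 in Foxp3-positive to 1620 in ICRE-positive lymph node cells. The spleen medians were 3384, 2940 and 1663 UMIs. The part of depth in the order was not tested.

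Glrx-positive cells held more Txn1, Prdx1, Gpx1 and Prdx2 and less Gsta4. In 735 such lymph node cells Txn1 had 446 CPM, against 238 CPM in the 4085 cells without Glrx, and Prdx1 had 623 and 392 CPM. In 767 such spleen cells Txn1 had 425 CPM and Prdx1 779 CPM, against 245 and 418 CPM in cells without Glrx. These cells were much deeper, at medians of 3367 and 1872 UMIs in the lymph node. Weighted log2 ratios were 0.31 and 0.32 for Txn1 and 0.36 and 0.53 for Prdx1, lymph node before spleen. Those of Gpx1 were 0.36 and 0.37, and those of Prdx2 0.17 and 0.13. Gsta4 was lower in Glrx-positive cells, at 18.5 and 46.0 CPM in the lymph node and 27.2 and 65.7 CPM in the spleen.

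Over the 12 gate ratios, 6 in each library, the genes with the pattern most like that of Gsta4 among 4870 ranked were Sesn3, Pdcd4, Asap1, Chchd10 and Rgs10. Their Pearson r with Gsta4 was 0.963, 0.960, 0.953, 0.9503 and 0.945, over 12 points that share cells and libraries. Genes of this kind were ranked on the pattern and not on the size of their ratios. Chchd10, a mitochondrial protein, had log2 ratios of 1.02 and 0.57 with ICRE and -1.40 and -2.12 with Klrg1. Sesn3, the gene ranked highest, moved less, at 0.30 and -0.005 with ICRE and -0.33 and -0.83 with Klrg1. Gsto1 was 566th in that ranking (r = 0.679). At the other end Gstp1 was last of the 4870 (r = -0.943), with Prdx1 (r = -0.873), Gpx1 (r = -0.817), Glrx (r = -0.79) and Txn1 (r = -0.79) also opposite to Gsta4. Gstp1 itself moved little, from a log2 ratio of -0.11 with ICRE in the lymph node to 0.47 with Klrg1 in the spleen. The ratios ranked were not weighted for depth.

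Of 45 other redox genes, chosen from knowledge of the pathway, 19 to 21 passed 20 CPM in each comparison. In the Klrg1 gate 3 of 20 were higher and 1 lower past the fold in the lymph node, where 17.3% of all genes were past it. In the spleen 5 of 21 were higher and 4 lower, where 25.1% of all genes were past it. Those alike in both were Prdx4, the peroxiredoxin of the endoplasmic reticulum, Gstt2, a theta-class transferase, Gsr, which regenerates reduced glutathione, and Txnip, which binds and inhibits thioredoxin. Prdx4 had 101 CPM in Klrg1-positive and 37.7 CPM in Klrg1-0 lymph node cells, and 125 and 42.2 CPM in the spleen, 2.67-fold and 2.97-fold higher. Gsr was 1.67-fold and 1.95-fold higher and Gstt2 1.84-fold and 1.82-fold higher, while Txnip was 1.62-fold and 1.66-fold lower. With ICRE, 1 of 20 was higher and 2 lower in the lymph node, where 13.8% of all genes were past the fold. In the spleen 1 of 19 was higher and 1 lower, where 7.55% of all genes were past it. Txnip was higher in ICRE-positive cells, at 654 CPM against 382 CPM in ICRE-0 cells of the lymph node. The spleen had 617 and 406 CPM. Prdx4 was 1.57-fold and 1.51-fold lower with ICRE. None of these ratios of other redox genes was weighted for depth, though Klrg1-positive cells were deeper and ICRE-positive cells shallower.

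No other redox gene was past the fold in both libraries with Foxp3, Gpr83, Il2ra or Ly6c1. The Gpr83 gate had 0 of 20 past the fold in the lymph node and 0 of 19 in the spleen, where 2.01% and 2.03% of all genes were. Between tissues 1 of 20 was past the fold, where 1.58% of all genes were. That gene was Gstt2, at 33.8 CPM in the lymph node and 21.5 CPM in the spleen. Close relatives of the transferases were nearly absent: Gsta1 and Gsta2 had 0 UMIs, Gsta3 had 2 in the lymph node and 4 in the spleen, and Gsto2 had 0 and 3. Gstp3 had 1354 and 1834 UMIs, and whether reads of Gstp1 were counted for it, or the reverse, was not tested.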

How the data were processed

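Transcripts of single cells were captured with a 10x Chromium 3′ kit in 1 lymph node and 1 spleen library. The deposited tables hold whole UMI counts for each gene and barcode. Per the submitters' processing notes, Cell Ranger 3.0.1 and build mm10 were used. Positions come from GENCODE M21 and promoters from RefSeq.

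A cell was kept with 500 or more genes and a mitochondrial share of 10% or less. This removed 259 barcodes of the lymph node and 297 of the spleen. No doublet was removed, and an alternative left out the 6% of barcodes with the most UMIs. UMIs were summed per group of cells and scaled to CPM, leaving gate gene UMIs out of the total. Where one side of a ratio had no UMI, 3 counts took its place. Cells of 1 library are not replicates, so no test was made. Intervals are exact 95% ones (scipy 1.17.1, numpy 2.4.6, pandas 2.3.3 in Python 3.11.15) and cover counting error only. Weights matched the second group to the first by deciles of its UMIs per cell. Thinning to 1200 UMIs left out 252 lymph node and 525 spleen cells.

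Values of all 10 enzymes were computed in every comparison. Up to 4 other redox genes per gate were named where past the fold alike in both libraries, and the 5 genes most like Gsta4 over 12 ratios. The members and lists were chosen with earlier results of these data known. Alternatives changed the cell filter, the gate, the fold, the CPM minimum, the total, the depth weighting and the barcodes left out. The scripts were tested on simulated data.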

Additional observations from a re-analysis of the deposited data

How the results depend on the processing

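No paired analysis was possible because each tissue has 1 library. Of 1640 log2 ratios of single enzymes under the alternatives, 1419 moved by less than their counting interval and 221 by more, and 0 ratios past the fold changed sign. Of 179 counts of enzymes past the fold, 162 stayed within 1.5 times the reported count. Of 15 shares of all genes past the fold, 4 moved by more than that with a minimum of 50 CPM, to 4.91% for ICRE and 0.477% for Il2ra in the spleen, and to 2.14% and 2.52% for Ly6c1 in lymph node and spleen. Below, the share of all genes past the fold at the same setting stands in brackets; it was added after seeing the data.

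With a fold of 1.3 there were 2 enzymes between tissues (4.52%), 2 and 3 with Foxp3 in lymph node and spleen (9.06% and 13.1%), 5 with ICRE in the lymph node (30.5%), 1 with Il2ra in the spleen (3.51%) and 7 in ICRE against Foxp3 in the lymph node (39.9%). Weighting for depth left 1 with ICRE in the spleen (3.86%), 2 and 3 with Klrg1 in lymph node and spleen (16.5% and 21.3%) and 2 in ICRE against Foxp3 in the spleen (13.5%). The Klrg1 lymph node count was 3 without the 6% of barcodes with the most UMIs (20.6%) and 3 without ribosomal protein and mitochondrial UMIs (18.6%). ICRE against Foxp3 in the spleen gave 3 without those deep barcodes (14.3%), 3 without barcodes of other lineages (16.7%), 3 by the mean of each cell's CPM (15.0%) and 3 after thinning (19.9%). A gate at 2 UMIs gave 2 with Ly6c1 in the lymph node (7.61%). For these counts the cause was not tested. Depth weighting within Gpr83 strata was also added after seeing the data. It moved Glrx in Gpr83-positive lymph node cells to a log2 ratio of 0.0036, from -1.41. That is a change of sign in a ratio past the fold, and the counts above leave it out. Low counts limit Gsta4 in Klrg1-positive cells and Glrx in ICRE-positive cells most.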
